A study of Mus musculus with 3 samples.

Results

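The snoRNA genes described here are the 86 of 1340 annotated snoRNA genes (6.42%) that held the midpoint of at least 1 peak in a list of MTR4 contact sites. They were chosen from RefSeq by 2 criteria, the biotype snoRNA and a peak midpoint inside the gene, and snoRNA genes within Tex14 were to be left out. No gene annotated as snoRNA lay inside Tex14, so this changed nothing. The 86 genes held 93 of the 15769 peaks, and 7575 of all 49997 annotated genes (15.2%) held a peak. Having a peak chose these genes, so it is a description and not a finding.

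The peaks came from LACE-seq, which maps the RNA sites crosslinked to a precipitated protein from where reverse transcription ends. The 3 libraries were all made with an MTR4 antibody from KIT-positive cells, obtained by flow sorting of testis suspensions from Mtr4WT mice aged 8 postnatal days and crosslinked with ultraviolet C light at 400 mJ. All 3 form 1 group, with no control precipitation and no input library among them, so background from abundant RNA cannot be told apart from contacts of MTR4. The labels do not say whether the libraries came from separate or pooled animals. A single list, recorded under replicate 3, was analysed. It gives each peak's position and strand sign and nothing on its strength, so depth is unknown and no value has a replicate error. Peaks are no measure of RNA level and cannot check the sorted cell type. Of 6 spermatogonial markers Kit held 2 peaks, Dmrt1 2 and Ddx4 1, while Dazl, Sohlh1 and Stra8 held 0. Of 4 Sertoli cell markers Wt1 and Gata4 held 1 peak each, and Sox9 and Amh held 0.

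Small nucleolar RNAs are stable noncoding RNAs, most of which guide chemical marks onto ribosomal and spliceosomal RNA. C/D snoRNAs (symbols starting with Snord) carry the short C and D boxes near their ends and direct 2′-O-methylation. H/ACA snoRNAs (Snora) fold into hairpins joined by an H box, end in an ACA box, and direct pseudouridylation. In mammals most are cut out of introns of host genes, and their ends are then trimmed back to the bound protein core. MTR4, encoded by Mtrex, is the RNA helicase that threads nuclear RNA into the exosome, the nuclease complex that trims snoRNA precursors at the 3′ end and degrades failed ones.

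RefSeq sequences of GRCm38.p6, the assembly behind mm10, overlapped 2 of the 86 genes and are shown to place a box of one and a peak of the other on actual letters. The table of microRNAs lists miR-5121 at the start of Snord33 as read with its host, a C/D snoRNA gene inside the ribosomal protein gene Rpl13a (minus strand, chr7:45126925-45126945). The C box core UGAUGA, searched on the given strand and shown in capitals, begins at base 7. It was held by 12 of all 1738 mature microRNAs (0.690%).
miR-5121, start of Snord33: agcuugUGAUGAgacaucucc
The Snord33 peak lay outside these 21 bases, at the opposite end of the 82 nt gene. For the H/ACA gene Snora57, a 53-base overlap with an annotated promoter window covers 1 of its 2 peaks (plus strand, chr19:8888633-8888685). Capitals mark the 20 bases of that peak. Its enclosing genes lie on both strands, so these DNA letters need not be those of the RNA.
Snora57, upper part with peak: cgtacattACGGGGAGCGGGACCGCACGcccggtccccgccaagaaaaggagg
These 20 bases run from base 106 to base 125 of the 150 nt gene.

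Named snoRNA genes held peaks more often than unnamed gene models. Among C/D genes, 31 of 93 had a peak (33.3%, interval 24.6 to 43.4), and among H/ACA genes 7 of 39 (17.9%, interval 8.98 to 32.7). Of unnamed genes, known here only by Gm, LOC or sequence-entry symbols, 48 of 1208 had one (3.97%, interval 3.01 to 5.23). All intervals are 95% Wilson intervals and cover counting error only. The C/D and H/ACA intervals overlap, while that of the unnamed genes lies below both. Within the unnamed group, LOC models stood at 26 of 288 (9.03%) and Gm models at 21 of 910 (2.31%), and 1 of 10 genes with sequence-entry symbols had a peak. The class with the highest share was the shortest: median annotated lengths were 77 nt for C/D, 121 nt for H/ACA and 131 nt for unnamed genes. Within the named classes, shorter genes did not hold peaks more often. Among C/D genes, 26 of 87 up to 100 nt had a peak (29.9%) and 5 of 6 longer ones (83.3%), with intervals that did not overlap. Among H/ACA genes it was 0 of 4 up to 100 nt and 7 of 35 over, with overlapping intervals. Only unnamed genes had the higher share up to 100 nt, 6.80% against 3.00%. Per kb of annotated gene there were 4.47 peaks in C/D, 1.63 in H/ACA and 0.356 in unnamed genes.

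**Figure D1:**
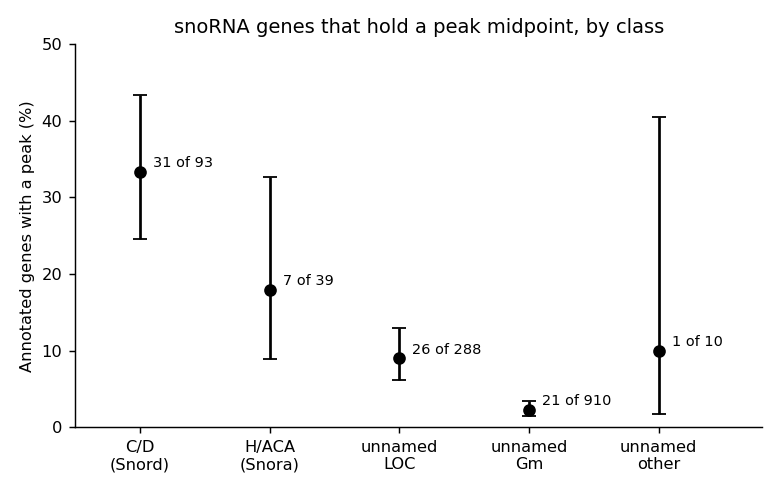
Share of annotated snoRNA genes that held a peak midpoint, by class, in percent, with 95% Wilson intervals as bars and counts beside each point. The C/D class stands at 33.3% and the Gm models at 2.31%.

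The imprinted C/D arrays inside Snhg14 held no peak. Upper limits in this paragraph are 3 counts divided by the number of genes, not Wilson limits. None of the 17 Snord116l genes had a peak, which allows a share of up to 17.6%, and without these copies the C/D share was 31 of 76 (40.8%). Snhg14, the long transcript that hosts the Snord115 and Snord116 arrays and is known mainly from neurons, encloses 206 annotated snoRNA genes, none with a peak (up to 1.46%). Most of these 206 are unnamed gene models. Outside Snhg14 the unnamed share was 48 of 1020 (4.71%), against 48 of 1208 (3.97%) over all unnamed genes. In Rian, the maternally expressed host of another imprinted cluster, 1 of 11 snoRNA genes had a peak, DQ267100. RNA levels are not given, so whether these arrays were transcribed in the sorted cells was not tested.

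Other small RNA classes lay on both sides of the snoRNA share of 6.42% (interval 5.23 to 7.86). Peaks were held by 57 of 65 rRNA genes (87.7%, interval 77.5 to 93.6), 89 of 430 tRNA genes (20.7%, interval 17.1 to 24.8) and 151 of 1004 snRNA genes (15.0%, interval 13.0 to 17.4). Below the snoRNA genes stood miRNA genes with 16 of 1228 (1.30%, interval 0.804 to 2.11). Several of these classes hold near-identical copies, so which copy was contacted is uncertain wherever reads could map to more than 1 place.

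Of the 31 C/D genes, 29 held 1 peak and 2 held 2. Positions below count from base 1 at the end of the gene with the lower genome coordinate, and positions of 0 or less lie just outside it. Coordinates in the list are multiples of 20 nt, so a place is no finer than that.

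Several C/D genes with a peak make RNAs that act in rRNA processing. Snord13, the U13 RNA, guides an acetylation of the small subunit rRNA. Its 98 nt gene (mm10 chromosome 8, 31149861 to 31149958) held 2 plus-sign peaks, at bases 1 to 20 and 81 to 100, so both ends were marked, the second peak passing the end by 2 bases. Snord118, the U8 RNA needed for large subunit rRNA maturation (chromosome 11, 69073426 to 69073562), held 1 minus-sign peak at bases 76 to 95 of 137. They were the only named genes of the 86 with no enclosing gene. Snord22, the U22 RNA known from frog oocytes for small subunit rRNA processing, held 1 peak at bases 16 to 35 of 126.

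The U14 genes, whose RNA is needed for small subunit rRNA processing in yeast, were marked in every annotated copy, 4 of 4. Snord14c held a peak at bases 19 to 38, Snord14d at 27 to 46 and Snord14e at 34 to 53, all with the minus sign and all inside Hspa8, the constitutive Hsc70 chaperone gene (chromosome 9, 40801276 to 40805202). Snord14a, inside the ribosomal protein gene Rps13, held a plus-sign peak at bases -9 to 10. The 3 copies in Hspa8 were thus marked further inside the gene than the copy in Rps13. Reads of U14 copies may be shared between them, which was not tested.

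Rpl13a (chromosome 7, 45125563 to 45128745) was marked in every snoRNA gene it holds: Snord32a, Snord33, Snord34 and Snord35a, the 4 snoRNA genes annotated inside it, each held 1 plus-sign peak. These snoRNAs are known from work on lipotoxic stress, besides their guide function. The peaks lay at bases -1 to 18 of Snord32a, -2 to 17 of Snord33, -1 to 38 of Snord34 and -5 to 14 of Snord35a. Each began just outside the lower end of its gene. Since Rpl13a is on the minus strand, that end is the 3′ end of an intronic snoRNA read with its host. Rps3 also had both of its snoRNAs marked, Snord15a at bases -3 to 16 and Snord15b at 79 to 98, so these 2 copies of U15 were marked at different places.

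The remaining C/D genes mostly repeated the placement at the lower end. Peaks began below base 1 in Snord45c, Snord53, Snord59a, Snord61, Snord83b, Snord95, Snord100, Snord104 and Snord123, the furthest at base -17 in Snord95. Peaks within the gene but in its lower part were those of Snord11 (14 to 33), Snord49a (2 to 21), Snord70 (4 to 23), Snord87 (12 to 31), Snord88a (12 to 31), Snord88c (27 to 46) and Snord111 (7 to 26). Snord17 (chromosome 2, 144265982 to 144266202), at 221 nt the longest C/D gene with a peak, held 2 peaks, at bases 100 to 119 and 160 to 179, both with the plus sign. Over all 33 C/D peaks the median midpoint was at base 14, and 15 peaks reached past the lower end against 1 past the higher end.

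**Figure D2:**
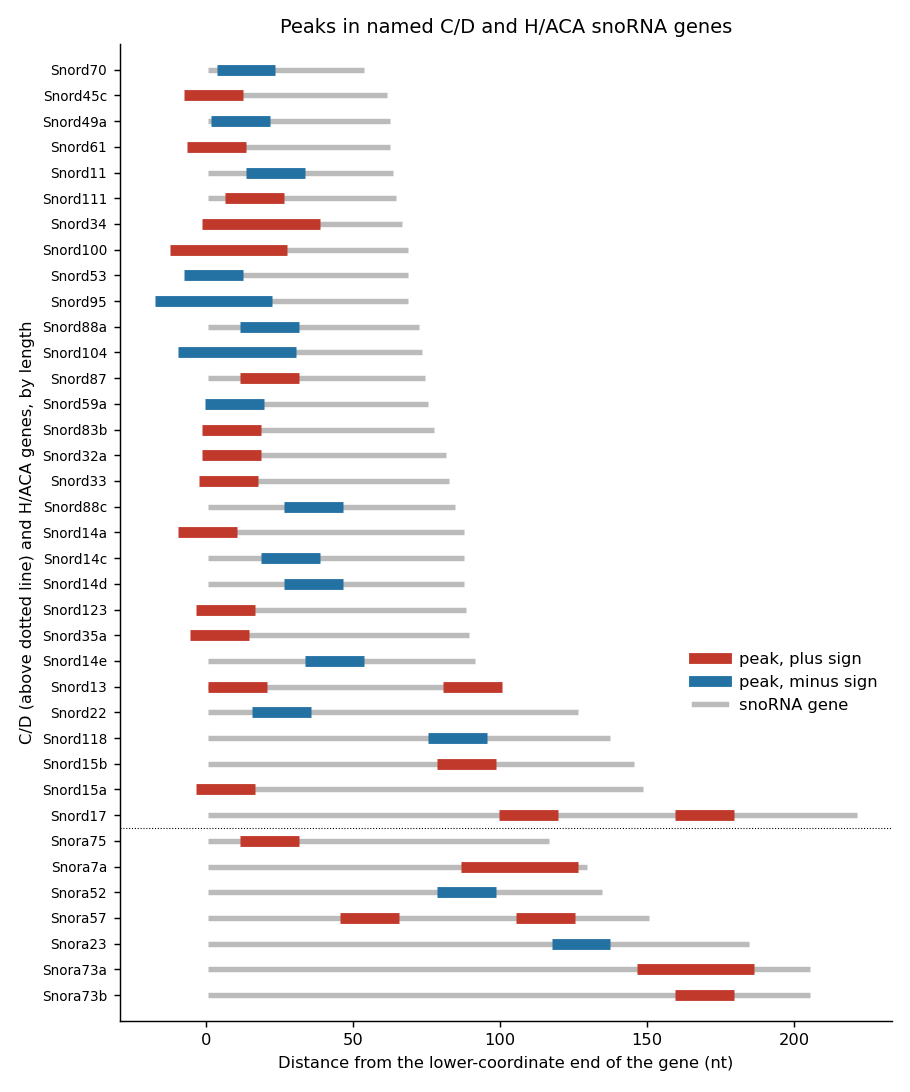
Peaks (coloured bars) drawn on 37 named snoRNA genes (grey), in nt from the lower-coordinate end, C/D genes above the dotted line and H/ACA genes below it, each sorted by length. Most C/D peaks sit at the left end, whichever their sign, while all H/ACA peaks but that of Snora75 and 1 of Snora57 lie right of the gene's centre.

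Midpoints inside H/ACA genes lay deeper than those inside C/D genes. Of their 8 peaks, 2 had the midpoint on the lower-coordinate side of the gene's centre, and the median midpoint was at base 111.5 of genes with a median length of 150 nt. Snora73a and Snora73b, the U17 RNAs known for their part in small subunit rRNA processing, lie side by side in the noncoding host Snhg3 (chromosome 4, 132351933 to 132353686). Both are 205 nt long, and their plus-sign peaks, at bases 147 to 186 and 160 to 179, overlapped in place. Snora57 held 2 peaks 60 nt apart, at bases 46 to 65 and 106 to 125. The others were Snora7a in Rpl32 (87 to 126), Snora23 in Ipo7 (118 to 137), Snora52 in Rplp2 (79 to 98) and Snora75 in Ncl, the nucleolin gene (12 to 31). None of the 8 reached past an end of its gene, against 16 of 33 C/D peaks and 10 of 52 in unnamed genes. The rule leaves out midpoints just outside a gene. A further one lay at -5 nt from the lower end of Snora57. Among genes with no midpoint inside, 3 H/ACA and 9 C/D genes had one within 100 nt below the lower end.

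The 48 unnamed genes held 52 peaks. Of these genes, 21 were at most 100 nt long, of 309 annotated at that length (6.80%), and 27 were longer, of 899 (3.00%). A set of 5 genes of 72 nt on chromosome 9 stood out by its repeats: LOC115487267 and LOC115487269 lie in Snhg5, LOC115487268 in 9330159M07Rik, LOC115487270 in Gm24463 and LOC115487271 in 9430037G07Rik. LOC115487269 held peaks at bases -7 to 12 and 33 to 52, and LOC115487271 at -6 to 13 and 34 to 53. The 2 genes thus showed nearly the same pair of places. LOC115487267 was marked at bases 25 to 64, LOC115487268 at 29 to 48 and LOC115487270 at -14 to 25. A further midpoint lay at -6 nt from the lower end of LOC115487267 and at -2 nt from that of LOC115487268. It falls just outside the rule, and with it these genes came close to the same pair of places. Whether these genes are copies whose reads were shared was not tested.

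Among other unnamed genes with 2 peaks, Gm26448 in Rpsa held them at bases -9 to 10 and 51 to 70 of 203, both with the minus sign. LOC115487884 in Snhg15 was the only one of the 86 genes with peaks of both signs, plus at bases 49 to 68 and minus at 109 to 128. Unnamed genes with a peak of 40 nt were Gm22858 in Wdr43 (-2 to 37), LOC115488689 in Eif4a2 (41 to 80) and LOC115489601 in Nop56 (-15 to 24), besides LOC115487267 and LOC115487270.

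Peaks gathered at the end with the lower genome coordinate. The midpoint lay on the lower-coordinate side of the gene's centre for 72 of 93 peaks (77.4%, interval 67.9 to 84.7), and 25 peaks reached past the lower end against 1 past the higher end. In genes of up to 100 nt it was 44 of 50 (88.0%), and in longer ones 28 of 43 (65.1%). RefSeq promoter entries gave 1 strand for the enclosing gene of 66 peaks, 31 with a plus-strand and 35 with a minus-strand host. With a plus-strand host, 28 of 31 midpoints (90.3%, interval 75.1 to 96.7) were on the lower side, which is the 5′ side of a snoRNA read in the direction of its host. With a minus-strand host it was 23 of 35 (65.7%, interval 49.2 to 79.2), and there the lower side is the 3′ side. The second interval includes an even split. In genes over 100 nt the counts were 7 of 10 (interval 39.7 to 89.2) with a plus-strand host and 10 of 18 (55.6%, interval 33.7 to 75.4) with a minus-strand host. For C/D genes alone, the counts were 10 of 10 (interval 72.2 to 100) with a plus-strand host and 12 of 14 (interval 60.1 to 96.0) with a minus-strand host. A 5′ or 3′ preference common to both strands was not seen.

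**Figure D3:**
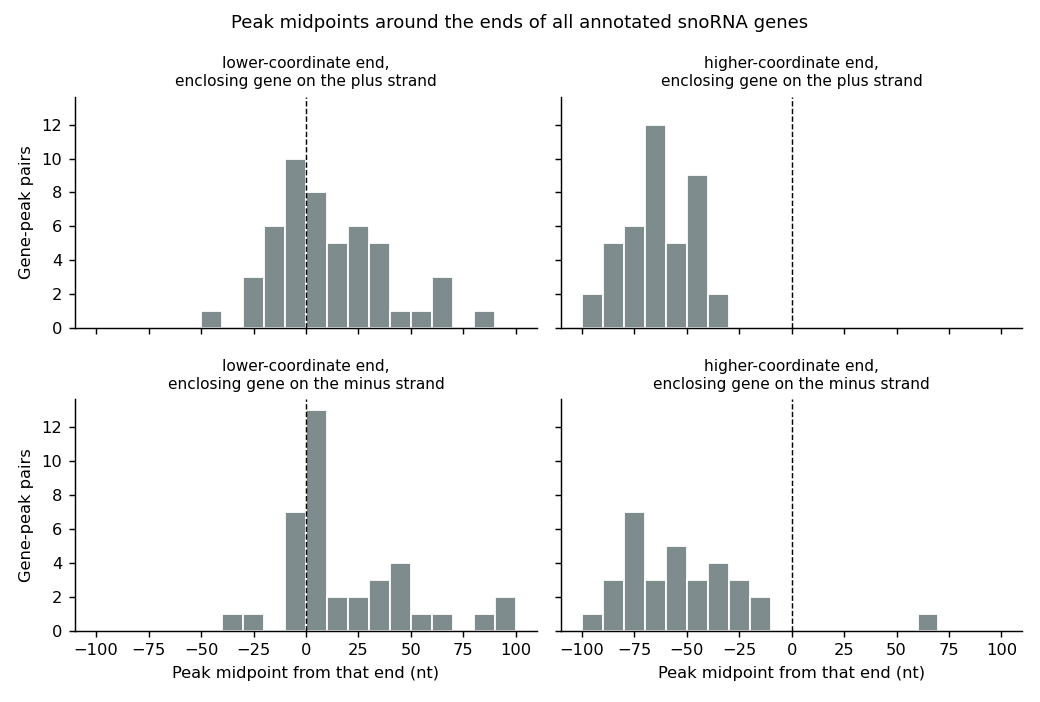
Number of gene-peak pairs by distance of the peak midpoint from the lower-coordinate end (left) and the higher-coordinate end (right) of all annotated snoRNA genes, in nt, with hosts on the plus strand above and on the minus strand below; negative distances lie at lower coordinates. Midpoints straddle the lower end on both strands and mostly stop short of the higher end, with 1 pair beyond it in the 100 nt drawn.

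The same side held at the edge of the rule. Among the 86 genes, 13 had a midpoint no more than 5 nt from a gene end, and it was the lower end in all 13. Among snoRNA genes with no midpoint inside, 16 had one within 10 nt and 26 within 100 nt, and all 26 of these lay below the lower end. The genes enclosing these 26 were on the plus strand in 17, on the minus strand in 5, and of no single known strand or absent in 4. Nearest were Snord16a and LOC115489083 at 1 nt and Snord2, Gm25203 and LOC115488834 at 2 nt. The pattern was also found in other small RNA genes. Midpoints on the lower side made up 151 of 212 in snRNA genes (71.2%) and 76 of 89 in tRNA genes (85.4%), and gene-peak pairs within 20 nt outside an end numbered 29 below and 0 above for snoRNA, 7 below and 0 above for snRNA, and 19 below and 0 above for tRNA genes.

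Nearly all peaks had the sign opposite to the strand of the host. The sign was opposite to the strand of the enclosing gene for 63 of 66 peaks (95.5%, interval 87.5 to 98.4), against 3815 of 7269 of all other peaks in genes of known strand (52.5%, interval 51.3 to 53.6). Over all peaks in such genes, these included, it was 52.9%. All 24 C/D peaks and all 5 H/ACA peaks with a host of known strand were of the opposite sign, as were 34 of 37 in unnamed genes. Both strands gave this, 30 of 31 peaks on plus-strand hosts and 33 of 35 on minus-strand hosts. Among all other peaks in genes of known strand the shares were 67.3% for plus-strand and 38.0% for minus-strand genes. Of all other peaks, inside or outside such genes, 61.4% carry the minus sign. The 3 exceptions were LOC115487665 in Serpinc1, Gm23123 in Fam234a and 1 of the 2 peaks of LOC115487884 in Snhg15. The labels do not say whether the sign is that of the read or of the RNA.

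**Figure D4:**
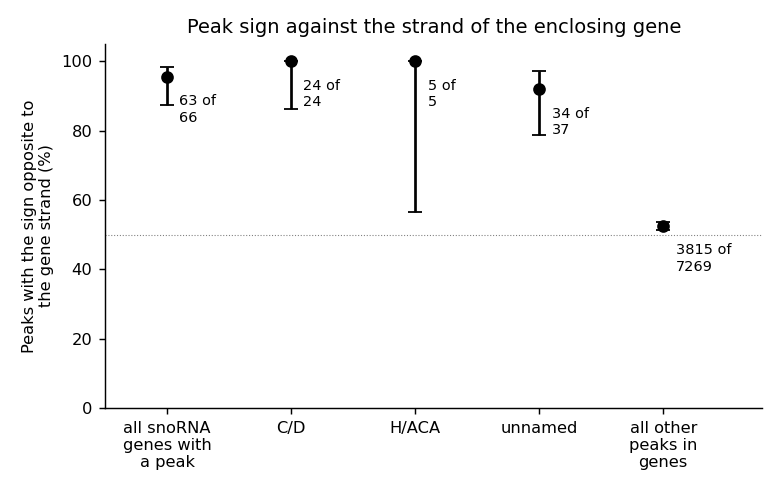
Share of peaks whose sign is opposite to the strand of the enclosing gene, in percent, with 95% Wilson intervals as bars and counts beside the points; the dotted line marks equal shares. Peaks in snoRNA genes stand at 95.5%, all other peaks in genes of known strand at 52.5%.

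Peaks of 40 nt or more were uncommon, and their share was above that of all other peaks, with intervals that did not overlap. This did not extend to wider peaks. Of the 665 such peaks elsewhere 452 were 40 nt wide, and the widest was 760 nt. Of the 93 peaks 11 were 40 nt wide (11.8%, interval 6.73 to 19.9) and 82 were 20 nt, with none wider, against 665 of 15676 of all other peaks at 40 nt or more (4.24%, interval 3.94 to 4.57). In snRNA genes the share was 67 of 212 (31.6%) and in tRNA genes 11 of 89 (12.4%). The C/D genes with a 40 nt peak were Snord34, Snord95, Snord100 and Snord104, and the H/ACA genes Snora7a and Snora73a.

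Of the 86 genes, 76 lay inside a protein-coding or long noncoding gene and 10 in none. Exons and introns are not given by the gene table, so enclosing genes are called hosts from position alone. There were 61 hosts, 44 protein-coding and 17 long noncoding, and 14 of the protein-coding ones were ribosomal protein genes or Rack1. SnoRNA genes inside ribosomal protein genes or Rack1 held a peak in 18 of 62 cases (29.0%, interval 19.2 to 41.3). Inside other protein-coding genes it was 41 of 399 (10.3%, interval 7.67 to 13.6). Inside long noncoding genes it was 20 of 350 (5.71%, interval 3.73 to 8.66), or 20 of 144 (13.9%) without Snhg14. With no enclosing gene, 10 of 544 had a peak (1.84%, interval 1.00 to 3.35), and all but Snord13 and Snord118 of those 10 were unnamed.

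Hosts differed in how many of their snoRNAs were marked. The 61 hosts were taken because they enclose a gene with a peak, so at least 1 was marked in each by choice. Genes that enclose only snoRNA genes without a peak are not among them. Over all 796 snoRNA genes inside an enclosing gene, 76 had a peak (9.55%, interval 7.70 to 11.8). Of the 34 hosts with 2 or more annotated snoRNA genes, 7 had a peak in each: Nop58 and Rpl13a in 4 of 4, Hspa8 in 3 of 3, and Pabpc4, Rps3, Snhg3 and Snhg5 in 2 of 2. Nop58 (chromosome 1, 59684961 to 59711510) encodes a core protein of the C/D particle itself, and its intragenic snoRNAs Snord70, Snord11, LOC115485825 and Gm26287 were each marked with a minus-sign peak while Nop58 had 0 peaks outside small RNA genes. Partly marked hosts with 2 marked genes were Eif4a1 (2 of 3), Rabggtb (2 of 3), Wdr43 (2 of 3), 2410002F23Rik (2 of 4), Eif4a2 (2 of 5) and Snhg1 (2 of 8). Eif4a1 and Eif4a2 encode the helicase of translation initiation, Pabpc4 a cytoplasmic poly(A)-binding protein and Wdr43 a ribosome assembly factor. Hosts with many snoRNA genes and a single marked one were Gas5 (1 of 8), Taf1d (1 of 6), Nop56 (1 of 5) and Rpl4 (1 of 5). In Gas5 another snoRNA gene, LOC115487638, had a midpoint 6 nt below its lower end. The same held for Snord16a in Rpl4 at 1 nt, Snord2 in Eif4a2 at 2 nt and the unmarked gene of Eif4a1 at 3 nt. The counts per host thus depend in part on a few nt. Besides Snhg14, the hosts of 4 or more snoRNA genes with none marked were limited to Snhg12 (0 of 4).

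**Figure D5:**
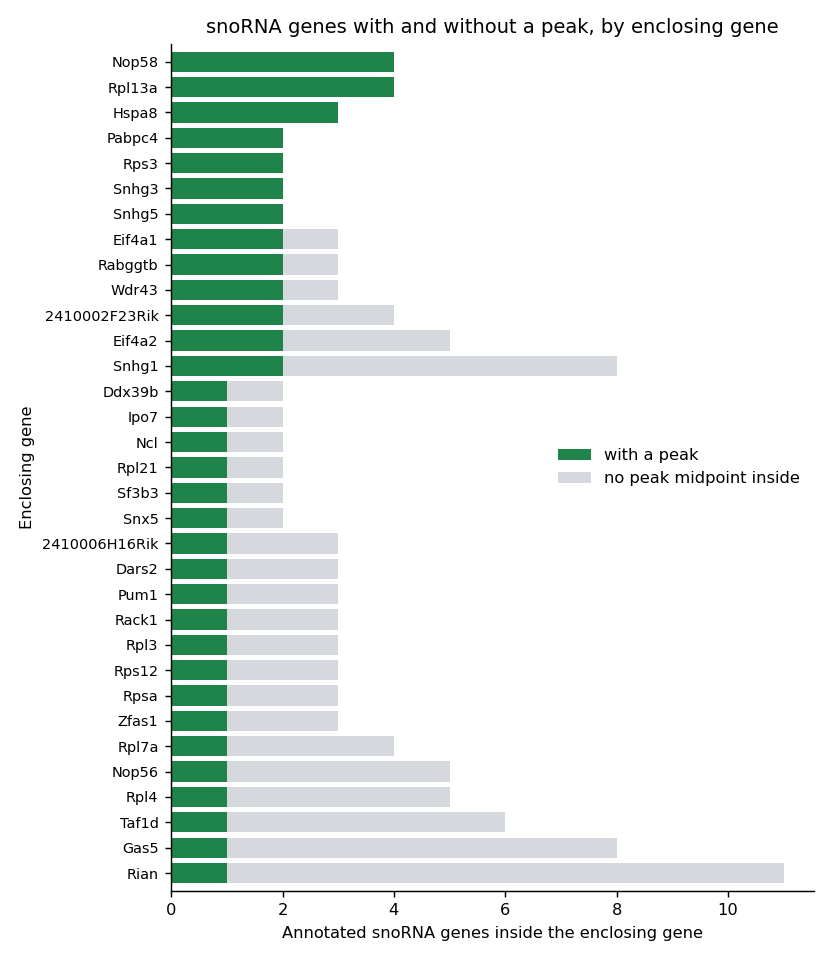
Annotated snoRNA genes inside 33 of the 34 hosts that enclose 2 or more of them, of which at least 1 had a peak; green counts genes with a peak midpoint inside, grey those without. Nop58 and Rpl13a are full at 4 of 4, and Rian has 1 of 11.

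The hosts held a peak outside small RNA genes more often than all genes of their kinds, but not beyond 1 kb from small RNA genes. Outside small RNA genes, 22 of 61 hosts held a peak (36.1%, interval 25.2 to 48.6), against 19.6% of all protein-coding and long noncoding genes. With peaks within 1 kb of small RNA genes left out it was 6 of 61 (9.84%, interval 4.59 to 19.8), against 19.4% of all such genes, and none of the 14 ribosomal hosts. Of the 419 genes that enclose snoRNA genes but none with a peak, 185 held a peak outside small RNA genes (44.2%, interval 39.5 to 48.9). Beyond 1 kb it was 169 of these 419 (40.3%, interval 35.7 to 45.1). The raised share is thus not particular to hosts of marked snoRNA genes. Those 419 genes are longer, with a median length of 57.6 kb. The hosts of the 86 genes are short, with a median length of 5.88 kb, so most of their bases lie near a small RNA gene. Eif4a1 and Rpl4 held 4 peaks each outside small RNA genes, of which 1 and 0 lay over 1 kb away. Outside was judged by the midpoint, so a peak that overlaps the end of a snoRNA gene can count. In Eif4a1 midpoints lay at -1, -3 and -4 nt from the lower ends of its snoRNA genes. In Rpl4 a midpoint lay at -1 nt from the lower end of Snord16a. The share of 36.1% thus includes peaks at snoRNA gene ends. In the 250 nt beyond each end of the 86 genes, small RNA genes left out, 12 peaks gave 295 per Mb (exact Poisson interval 153 to 516), against 51.6 per Mb (interval 35.3 to 72.8) in the same flanks of the 1254 snoRNA genes without a peak and 5.79 per Mb over the chromosomes. Of the 12 peaks, 9 were in a flank below a gene and 4 in one above, 1 of them in both. The 9 had midpoints at -1 to -17 nt from the lower end, and the nearest of these peaks reach into the snoRNA gene. The density therefore includes peaks that straddle a gene end.

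Of the 48 hosts with a promoter entry, 2 (4.17%, with an interval that reaches up to 14.0%) had a peak in a promoter window, from 250 bases before to 50 after an annotated start. The share over all protein-coding and long noncoding genes with an entry was 2.59%, so the 2 shares are not told apart. The 2 windows are shown because the peak there is upstream of the host RNA and away from the snoRNA genes, with capitals for the peak (both plus strand, minus-sign peaks, build GRCm38.p6). Zfas1, the noncoding host of Gm23201, was marked at positions -53 to -34 from its start (chr2:167062841-167062940), and Wdr43 at -214 to -195 (chr17:71615965-71616060).
Zfas1: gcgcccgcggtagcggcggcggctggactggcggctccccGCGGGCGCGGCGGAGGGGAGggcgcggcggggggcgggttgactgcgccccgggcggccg
Wdr43: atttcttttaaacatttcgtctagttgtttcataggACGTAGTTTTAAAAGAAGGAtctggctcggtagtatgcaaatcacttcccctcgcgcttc
Of the 20 bases of each peak, 18 were G or C in Zfas1 and 6 in Wdr43.

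Protein genes of snoRNA particles and of snoRNA maturation were also looked up, 34 in all. A peak was held by 9 of them, and by 7 outside small RNA genes. Among the C/D core genes, Nop58 held 4 and Nop56 1, all inside snoRNA genes, Snu13 held 1, and Fbl, the methyltransferase gene, held 0. None of the 4 H/ACA core genes Dkc1, Nhp2, Nop10 and Gar1 held a peak. Of 13 assembly and trafficking genes 4 did: Shq1, an H/ACA assembly factor, held 3, and Znhit6, Rpap3 and Tgs1, the cap trimethylase gene, held 1 each. Of 13 maturation and decay genes, Zfc3h1 held 2 and Dis3, an exosome nuclease gene, held 1, while Mtrex and Exosc10 were among the 11 with 0. The share of 9 of 34 lies beside 25.5% of all protein-coding genes with a peak. Nop58 and Nop56 are among the 9 only through peaks inside snoRNA genes that were chosen for having a peak. Outside small RNA genes, the 7 of 34 lie beside 19.6% of all protein-coding and long noncoding genes.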

How the data were processed

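Per the submitters' processing notes, reads were handled with cutadapt 1.15 and Bowtie 1.0.0 on the mouse build mm10. The peak caller, its settings, duplicate removal and any pooling of replicates are not given in the sources used here. The name of the list carries abbreviations that may stand for merging, deduplication and the Piranha caller; this could not be verified. Each line of the list, as the authors made it, gives chromosome, start, end and sign, with no score, count or p-value. Coordinates are printed 1-based.

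Peak midpoints, taken as the upper of the central bases, were joined to RefSeq genes of GRCm38.p6. That table gives no strand or exon, so host strand was read from the RefSeq promoter entries. Classes follow gene symbols. Hosts are protein-coding or long noncoding genes that hold the whole snoRNA gene. Named in the text are the C/D and H/ACA genes with a peak, unnamed ones with 2 or more peaks or a peak of 40 nt or more, and hosts of 2 or more. Of these C/D genes, 1 is not reported here, nor is its host; both stay in the counts and are left out of the plots that name genes. Snord16a, LOC115489083, Snord2, Gm25203, LOC115488834, LOC115487638, LOC115487665, Gm23123, LOC115487268 and further hosts were named after their values were seen. The genes and lists were chosen with earlier results of these data known. With 1 list and no control, no test was run; shares carry 95% Wilson intervals. The matching was tested on simulated data. Python 3.11.15, pandas 2.3.3, numpy 2.4.6 and scipy 1.17.1 were used.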

Additional observations from a re-analysis of the deposited data

How the results depend on the processing

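Of the 57 alternative values, 34 stayed within 1.5 times the main count or within its interval, and 23 moved beyond it. Reversal of a direction was not assessed. Requiring the whole peak inside the gene left 64 genes and moved the C/D count to 16. With peaks of 40 nt or more the count was 11 (4 C/D, 2 H/ACA, 5 unnamed), and with at least 2 peaks 7 (2, 1 and 4). Plus-sign peaks alone gave 46 genes (17 C/D, 24 unnamed), minus-sign peaks alone 41 (14 C/D, 2 H/ACA, 25 unnamed). These settings use fewer peaks by construction. Any overlap gave 100 genes and widening each gene by 20 nt gave 106. Taking the lower central base as midpoint, an alternative chosen after seeing the data, gave 83. Hosts with a peak outside small RNA genes numbered 6 when peaks within 1 kb of small RNA genes were left out, 61 with all peaks, which the choice of genes fixes, and 8 with at least 2 peaks. Read 5′ to 3′ along the host, 60.6% of midpoints were on the 5′ side of the gene's centre, against 77.4% on the lower-coordinate side. At 60 nt or more, the wide share was 0%. All other peaks include some of that width, so the higher share was not kept there. Flank density was 587 per Mb for 100 nt and 110 per Mb for 1000 nt, since the added bases lie further away. No paired analysis was possible because there is 1 group and 1 list; for the same reason no replicate could be left out. Depth is unknown, so a gene with no peak is not shown to lack contact.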
